A study of Mus musculus with 48 samples.

Results

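The Zfp36 family of mRNA decay factors was followed through 8 genotypes of the mouse cell line Ba/F3. Its members were taken from the deposited gene table by symbol, which gave 3 genes of 55487: Zfp36 (tristetraprolin, ENSMUSG00000044786), Zfp36l1 (ENSMUSG00000021127) and Zfp36l2 (ENSMUSG00000045817). All 3 passed the filter on low counts at every level tested. In the RefSeq annotation of GRCm38.p6 Zfp36 lies on chromosome 7 from 28376784 to 28379228, Zfp36l1 on chromosome 12 from 80107760 to 80113013 and Zfp36l2 on chromosome 17 from 84183924 to 84187947. A family member of mouse placenta, Zfp36l3, had 0 RNA-seq counts over the 24 libraries, where 3 counts would be 0.00465 CPM (counts scaled to library size).

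As background, these proteins bind AU-rich elements, short uridine-rich stretches in the untranslated ends of many cytokine, growth factor and cell cycle mRNAs, through paired CCCH zinc fingers. They then bring in the CCR4-NOT deadenylase, which shortens the poly(A) tail, and the decapping enzymes, so that the bound mRNA is degraded. Zfp36 is an immediate early gene, switched on within minutes by serum and cytokines, and its own mRNA carries AU-rich elements and is unstable. Zfp36l1 and Zfp36l2 are best known in blood cells for restraining the cell cycle during early B and T lymphocyte development, and Zfp36l2 also for its part in red cell precursors.

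Ba/F3 is described as an interleukin 3 dependent pro-B cell line. The groups were WT cells, clones that had lost 1 allele of a large subunit gene (Rpl5+/-, Rpl11+/- and Rpl22+/-) or both alleles of Rpl22 (Rpl22-/-), and clones in which the labels give a point mutation on both alleles, either R98S in Rpl10 or, in Rps15, P131S or H137Y. The Rps15 mutations occur in chronic lymphocytic leukaemia, and the series asks how such ribosomal protein defects alter translation and transcription. Mutant clones came from CRISPR-Cas9 editing, so each is a line grown from its own edited cell, and each genotype had 3 clones with 1 RNA-seq and 1 ribosome footprint library apiece. All groups had 10% serum and interleukin 3 at 1 ng/ml in their medium, and cycloheximide at 0.1 mg/ml for 1 min stopped translation before harvest. Footprints, the stretches of 28 to 30 nt that a ribosome shields from nuclease, report how much of an mRNA is being translated, and their level over the RNA level is the translational efficiency.

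The promoter sequences are shown because all 3 members had lower RNA in Rps15 P131S cells, and Zfp36 is known as a target of serum and cytokine signalling; those of Zfp36 and Zfp36l1 were used here. They are the 250 bases upstream of the start in RefSeq on GRCm38.p6, read 5′ to 3′ on the minus strand, at chr7:28379229-28379478 for Zfp36 and chr12:80113014-80113263 for Zfp36l1. Capitals mark matches to the motifs searched.
Zfp36: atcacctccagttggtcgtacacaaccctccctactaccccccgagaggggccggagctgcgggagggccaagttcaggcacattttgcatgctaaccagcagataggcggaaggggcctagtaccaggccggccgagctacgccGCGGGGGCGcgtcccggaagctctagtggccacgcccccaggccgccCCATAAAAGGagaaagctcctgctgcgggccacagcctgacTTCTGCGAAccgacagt
Zfp36l1: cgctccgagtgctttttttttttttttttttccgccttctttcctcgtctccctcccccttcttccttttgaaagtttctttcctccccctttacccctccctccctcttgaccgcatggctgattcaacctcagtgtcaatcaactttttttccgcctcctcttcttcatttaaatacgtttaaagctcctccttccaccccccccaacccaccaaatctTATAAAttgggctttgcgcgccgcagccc
Both strands were searched for TATAAA (the core promoter element), TTCNNNGAA (a STAT-type site), GCGNGGGCG (an EGR-type site) and the CArG box (the serum response element core), which were chosen with these promoters in view. In the Zfp36 promoter GCGGGGGCG stood at bases -105 to -97 from the start, the CArG box CCATAAAAGG at -58 to -49 and TTCTGCGAA at -17 to -9, with no overlap among them. The Zfp36l1 promoter held TATAAA at -29 to -24 and none of the other motifs. Over 32851 mouse promoter windows of the same 250 bases, TATAAA was present in 12.4%, TTCNNNGAA in 7.02%, GCGNGGGCG in 4.7% and the CArG box in 1.47%. A match describes letters in the window and is not a measured binding site.

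RNA-seq libraries held 13029073 to 38258559 estimated counts and footprint libraries 15598994 to 72044439. RNA of the edited gene was 67.2% of WT in Rpl5+/-, 64.1% in Rpl11+/- and, for Rpl22, 72% in heterozygous and 66.7% in homozygous clones. Rpl22 RNA did not separate the 2 Rpl22 genotypes, at 508.5 to 727.2 CPM in Rpl22-/- and 664.4 to 712.4 CPM in Rpl22+/-. A footprint library went against its label: Rpl22 footprints in Rpl22-/- clone 30 were 1544 CPM, inside the 1429 to 1596 CPM of Rpl22+/-, while Rpl22-/- clones 649 and 776 had 274 and 317 CPM. Among the 9 pro-B cell markers reported, 8 were near 0 in WT RNA (Ebf1, Igll1, Rag1, Rag2 and Dntt at 0, the others at most 0.132 CPM) and Cd79b had 7.41 CPM, so the labelled cell type was not borne out by its markers. The interleukin 3 receptor chains Csf2rb, Csf2rb2 and Il3ra were present at 530, 413 and 27.2 CPM. The erythroid and mast cell factor Gata1 had 60.6 CPM.

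In WT cells Zfp36l2 was the family member with by far the most RNA, and its footprint level was low for that RNA. Mean RNA levels were 502 ± 78.6 CPM for Zfp36l2, 54.3 ± 4.45 CPM for Zfp36 and 51.7 ± 5.75 CPM for Zfp36l1 (SD, n = 3). Per kilobase of gene span, the only length in the tables used here, the levels were 125, 22.2 and 9.83 CPM per kb. The Zfp36l2 level was above that of 98% of 12074 genes, that of Zfp36 above 69.2% and that of Zfp36l1 above 67.7%.

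Footprints were closer together. In WT they averaged 52.2 ± 6.96 CPM for Zfp36l2, 40.3 ± 4.94 CPM for Zfp36 and 23.5 ± 3.87 CPM for Zfp36l1 (SD, n = 3). The ratio of footprint CPM to RNA CPM was 0.743 for Zfp36, 0.455 for Zfp36l1 and 0.104 for Zfp36l2, beside a median of 0.807 over 12074 genes. Whether footprints were counted over whole transcripts or coding sequence is not given in the sources used here, and most Zfp36l1 and Zfp36l2 footprint counts were fractional, so the ratio is a relative value. Only 4.47% of genes had a lower ratio than Zfp36l2, against 46.3% for Zfp36 and 27.7% for Zfp36l1. Across all 24 clones the Zfp36l2 ratio stayed between 0.0842 and 0.21. Zfp36l1 ran from 0.209 in Rps15 P131S clone 20 to 0.935, so only the highest Zfp36l2 value, from Rpl22+/- clone 60, reached the lowest Zfp36l1 value. Zfp36 ran from 0.607 to 1.41.

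**Figure D1:**
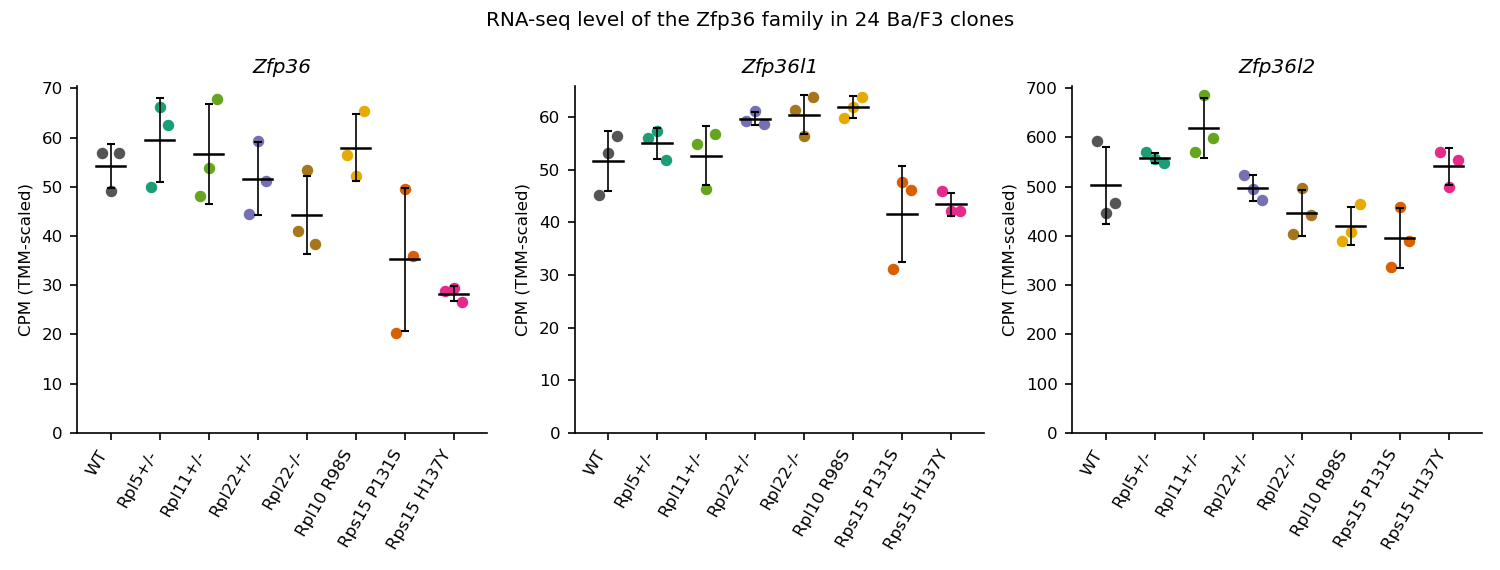
RNA level of each family member in CPM on scaled library sizes (y axis, from 0, a separate scale per gene) by genotype (x axis). Points are clones, bars are means and error bars SD over 3 clones; the Rps15 H137Y points of Zfp36 (26.5 to 29.5 CPM) lie below all WT points, while the Rps15 P131S points of each gene reach into the WT range.

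Zfp36 RNA was lower in both Rps15 mutants. WT clones 1, 2 and 3 had 56.8, 49.1 and 56.9 CPM. Rps15 H137Y clones 16, 6 and 2 had 28.7, 26.5 and 29.5 CPM, a tight group whose highest clone was below the lowest WT clone. Rps15 P131S clones 24, 63 and 20 had 49.5, 35.9 and 20.4 CPM, a wide spread in which clone 24 reached the WT range and clone 20 was the lowest of all 24 clones.

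By edgeR's quasi-likelihood test with Benjamini-Hochberg adjustment over 12814 genes, Zfp36 RNA fell to 52.1% of WT in Rps15 H137Y (log2 change -0.94, SE 0.22, adjusted p = 0.00253). It fell to 65% of WT in Rps15 P131S (-0.62, SE 0.22, adjusted p = 0.0272). These were common events in these cells: in RNA 41% of genes tested were called in Rps15 H137Y (20% lower) and 47% in Rps15 P131S (23.4% lower). Groups did not overlap in 49.8% of genes in Rps15 H137Y (24.9% with all mutant clones lower). In bulk samples, less RNA per cell and fewer cells that express a gene cannot be told apart. The Rps15 H137Y call held without any 1 clone. That of Rps15 P131S was lost without clone 20 (-0.35, adjusted p = 0.121), clone 63 (-0.64, 0.0564), WT clone 1 (-0.59, 0.0708) or WT clone 3 (-0.59, 0.0731), without the filter on low counts (0.0633) and in a fit of those 2 genotypes alone (0.138).

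Zfp36l1 and Zfp36l2 RNA also fell in Rps15 P131S, by less. Zfp36l1 had 45.3, 53.2 and 56.4 CPM in WT clones 1, 2 and 3 and 47.6, 46.1 and 31.1 CPM in Rps15 P131S clones 24, 63 and 20. The groups overlapped, with clone 20 alone below the lowest WT clone. The log2 change was -0.31 (SE 0.12, adjusted p = 0.0307). Zfp36l2 had 592, 447 and 467 CPM in WT clones 1, 2 and 3 and 458, 389 and 337 CPM in Rps15 P131S clones 24, 63 and 20. Here clone 24 lay inside the WT range, and WT clone 1 stood above the other WT clones. The log2 change was -0.35 (SE 0.11, adjusted p = 0.0139).

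All 3 members were thus called lower in Rps15 P131S, where 23.4% of genes were, and clone 20 was the lowest Rps15 P131S clone for each. Without clone 20 no member was called there (Zfp36l1 -0.15, adjusted p = 0.211; Zfp36l2 -0.25, adjusted p = 0.089). The Zfp36l1 call was also lost without WT clone 2 (-0.29, 0.0823) or WT clone 3 (-0.24, 0.137), that of Zfp36l2 without WT clone 1 (-0.21, 0.135), and both in a fit of only WT and Rps15 P131S (0.176 and 0.0895).

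In Rps15 H137Y the 2 other members were not called. Zfp36l1 had 46, 42.2 and 42.1 CPM in clones 16, 2 and 6, with clone 16 just above WT clone 1 (log2 change -0.25, SE 0.12, adjusted p = 0.0901, and -0.34 with adjusted p = 0.0394 without WT clone 1). Zfp36l2 had 570, 499 and 554 CPM in clones 16, 2 and 6, all inside the WT range (0.11, SE 0.11, adjusted p = 0.473).

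Set against each other, the Rps15 mutants differed in Zfp36l2. Its RNA was 395 ± 60.8 CPM in Rps15 P131S and 541 ± 37.1 CPM in Rps15 H137Y (SD, n = 3), and the highest Rps15 P131S clone was below the lowest Rps15 H137Y clone. The log2 change of Rps15 P131S against Rps15 H137Y was -0.45 (SE 0.11, adjusted p = 0.00497). In that comparison 25.2% of genes were called (12.6% lower) and 29.8% did not overlap (15.2% lower). The Zfp36l2 difference passed without any 1 clone, with adjusted p up to 0.0391, but not in a fit of those 2 genotypes alone (-0.46, adjusted p = 0.0861). For Zfp36 the difference was 0.32 with a 95% interval of -0.15 to 0.79, and it passed only without Rps15 P131S clone 20 (0.59, adjusted p = 0.0244). For Zfp36l1 it was -0.06, with an interval of -0.30 to 0.18.

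Levels of marker RNAs moved with the Rps15 genotypes as well. The interleukin 3 receptor chains summed to 876 to 1039 CPM in WT, 2234 to 2844 CPM in Rps15 P131S and 1421 to 2511 CPM in Rps15 H137Y, with 2 of the 3 chains called higher in each. The 9 markers of other blood cells summed to 103.5 to 144.5 CPM, 148.7 to 339.7 CPM and 231 to 332.3 CPM. Of the 7 tested, 3 were called higher in Rps15 P131S (Cpa3 and Mcpt8 of mast cells and basophils, and Itgam of myeloid cells) and 1 lower (Gata1), and 5 higher in Rps15 H137Y (Mcpt8, Itgam, Mpo, Csf1r and Hba-a1). Called were thus 66.7% of the receptor chains in each Rps15 mutant. For the other markers it was 57.1% in Rps15 P131S and 71.4% in Rps15 H137Y. Of all genes 47% were called in Rps15 P131S (23.7% higher) and 41% in Rps15 H137Y (21% higher). Both sums also lay above WT in every Rpl5+/-, Rpl11+/- and Rpl22+/- clone. The receptor chains summed to 1278 to 1337, 1071 to 1945 and 1149 to 1495 CPM there. The other markers summed to 148.1 to 198.9, 174.8 to 190.5 and 145.2 to 175.3 CPM. No gene of either list was called in RNA in those genotypes. In Rpl22-/- and Rpl10 R98S both sums overlapped WT. Of the 7 tested markers of other blood cells, 1 was called lower in Rpl10 R98S RNA (14.3%, beside 12.9% of all genes) and none in Rpl22-/-. Cpa3 had 34.9 CPM in WT and 146 CPM in Rps15 P131S, Mcpt8 0.118 CPM in WT and 14.5 and 18.7 CPM in Rps15 P131S and Rps15 H137Y, and the haemoglobin gene Hba-a1 25.3 CPM in WT and 130 CPM in Rps15 H137Y. Cd79b, the 1 pro-B cell marker tested, fell in Rps15 P131S, from 7.41 to 4.03 CPM (log2 change -0.88, adjusted p = 0.00192), and had 7.24 CPM in Rps15 H137Y. The defining markers Cd3e (T cells) and Elane (neutrophils) stayed at or below 0.0594 and 0.201 CPM in every library. Rps15 RNA itself was 907 CPM in Rps15 P131S clone 24 and 1825 and 1935 CPM in clones 63 and 20, and 1829 CPM in Rps15 H137Y clone 16 against 817 and 875 CPM in clones 6 and 2. Their part in the family's levels was not tested.

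In the other 5 genotypes no member was called in RNA by edgeR's test. Of all genes, Rpl22+/- had 3.9% called and Rpl22-/- 5.27%, while Rpl5+/- had 1.04%, Rpl10 R98S 12.9% and Rpl11+/- 11.8%. The nearest to a call was Zfp36l2 in Rpl11+/-, where clones 22, 406 and 414 had 570, 687 and 598 CPM, 2 of them above the highest WT clone (log2 change 0.30, SE 0.11, adjusted p = 0.0825). Without WT clone 1, the highest WT clone, it passed (0.43, adjusted p = 0.0256).

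Zfp36l1 and Zfp36l2 RNA differed in sign in Rpl10 R98S. Zfp36l1 had 59.9, 62 and 63.9 CPM in clones A29, A30 and A34, all above WT, as were all 3 Rpl22+/- clones (58.8 to 61.1 CPM). Groups did not overlap in 46.3% and 30% of genes in those comparisons (23.5% and 15% with all mutant clones higher). The log2 changes were 0.26 (adjusted p = 0.137) and 0.21 (adjusted p = 0.397), and the former passed in a fit of only WT and Rpl10 R98S (0.27, adjusted p = 0.0149). Zfp36l2 was at 389, 408 and 464 CPM in the same Rpl10 R98S clones, overlapping WT (-0.26, adjusted p = 0.13).

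Ordered by mean RNA, Zfp36 ran from 59.6 CPM in Rpl5+/- through Rpl10 R98S, Rpl11+/-, WT, Rpl22+/- and Rpl22-/- to 35.3 CPM in Rps15 P131S and 28.3 CPM in Rps15 H137Y. Every pair of neighbours in that order had overlapping clones. Zfp36l1 ran from 61.9 CPM in Rpl10 R98S to 41.6 CPM in Rps15 P131S, and its only gap between neighbours was from Rpl22+/- to Rpl5+/-. Zfp36l2 ran from 618 CPM in Rpl11+/- to 395 CPM in Rps15 P131S with no such gap.

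**Figure D2:**
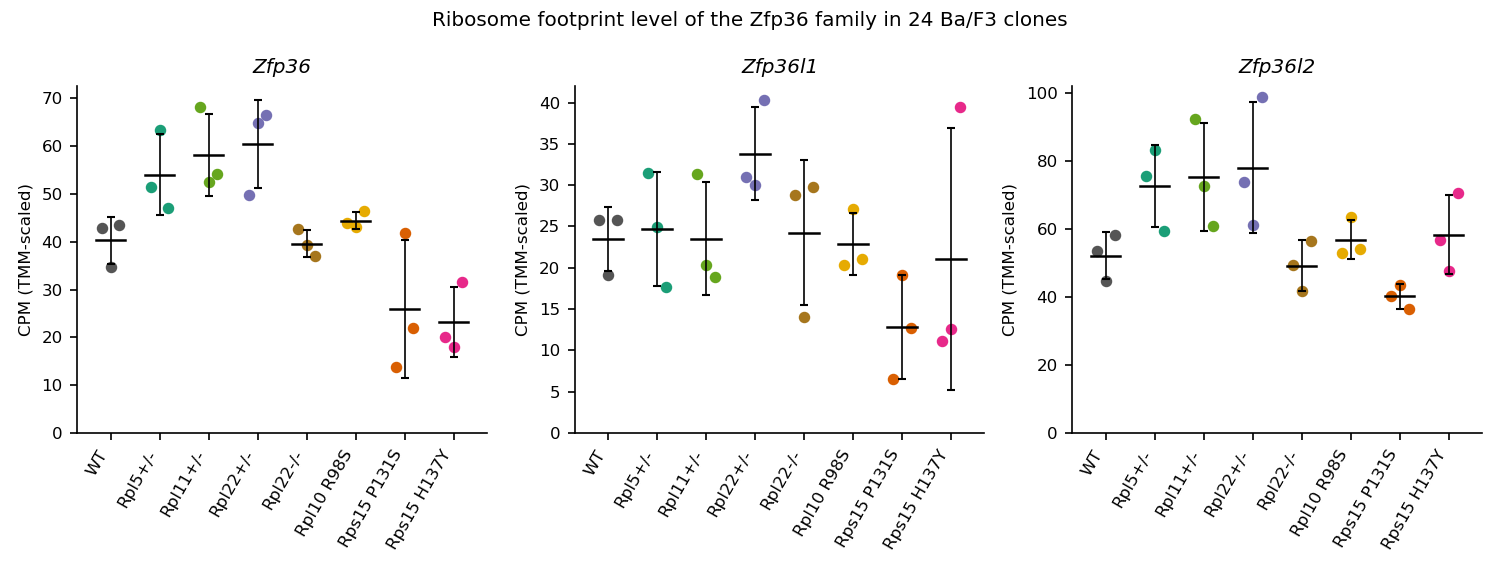
Ribosome footprint level of each member in CPM (y axis, from 0, a separate scale per gene) by genotype (x axis), with clones as points, means as bars and SD over 3 clones as error bars. For Zfp36 and Zfp36l2 the points of Rpl5+/-, Rpl11+/- and Rpl22+/- all lie above the WT points, and Zfp36l1 in Rps15 H137Y has a clone at 39.4 CPM and the other 2 at 11.2 and 12.6 CPM.

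At the footprint level edgeR's test called 0 of the 21 comparisons of a member against WT, while 6 had an unadjusted p under 0.05. DESeq2 called 1 and limma voom 2, all of Zfp36 in Rps15 mutants. Unadjusted p values under 0.05 were common over the 16217 genes. There were 4768 in Rps15 P131S, 4089 in Rps15 H137Y, 2223 in Rpl22+/- and 2209 in Rpl10 R98S. Rpl11+/- had 1601, Rpl22-/- 1093 and Rpl5+/- 667. Footprints were noisier than RNA, most of all for Zfp36l1: the standard error of its changes was 0.42 on the log2 scale against 0.11 to 0.12 in RNA. For Zfp36 it was 0.27 against 0.22, and for Zfp36l2 0.19 against 0.11. In the Rps15 mutants 16.7% of genes were called in footprints in Rps15 P131S and 11.7% in Rps15 H137Y.

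Zfp36 footprints in the Rps15 mutants had the size of the RNA difference. WT clones 1, 2 and 3 had 42.9, 34.6 and 43.5 CPM, and Rps15 H137Y clones 16, 6 and 2 had 20, 31.6 and 17.9 CPM, all below WT. Rps15 P131S clones 24, 63 and 20 had 41.8, 21.9 and 13.9 CPM, again with clone 24 in the WT range. The log2 changes were -0.80 (SE 0.27, adjusted p = 0.0606) in Rps15 H137Y, where 30.4% of genes did not overlap (16.4% lower), and -0.64 (SE 0.27, adjusted p = 0.115) in Rps15 P131S. DESeq2 gave -0.78 with adjusted p = 0.031 for the former, and limma voom -0.91 with adjusted p = 0.023 and -0.80 with adjusted p = 0.0297. Without Rps15 H137Y clone 6 the edgeR value was -1.08 (adjusted p = 0.0242), and without Rps15 P131S clone 24 it was -1.14 (adjusted p = 0.00189).

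Zfp36l1 footprints were 25.8, 19.1 and 25.7 CPM in WT clones 1, 2 and 3 and 19.1, 12.7 and 6.49 CPM in Rps15 P131S clones 24, 63 and 20. That is 54.3% of WT, with clone 24 just above the lowest WT clone (log2 change -0.88, 95% interval -1.77 to 0.0032, adjusted p = 0.172). In Rps15 H137Y clones 16 and 2 had 11.2 and 12.6 CPM but clone 6 had 39.4 CPM, so that the change was -0.17 (adjusted p = 0.867) with clone 6 and -0.97 (adjusted p = 0.117) without it. The 2 footprint libraries of least depth, Rpl22+/- clone 60 with 15598994 counts and Rps15 H137Y clone 6 with 26663087, had the 2 highest Zfp36l1 footprint levels of the 24 (40.2 and 39.4 CPM), and the part of depth in this was not tested.

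Zfp36l2 footprints followed its RNA in the Rps15 mutants. They were 53.6, 44.6 and 58.3 CPM in WT clones 1, 2 and 3, 43.7, 36.5 and 40.4 CPM in Rps15 P131S clones 24, 63 and 20, and 56.8, 70.8 and 47.5 CPM in Rps15 H137Y clones 16, 6 and 2. All 3 Rps15 P131S clones were below WT (-0.38, SE 0.19, adjusted p = 0.191), where 36% of genes did not overlap (19.4% lower). They were also below the Rps15 H137Y clones (-0.54, SE 0.19, adjusted p = 0.119), where 19.5% of genes did not overlap (9.68% lower) and 4.17% were called. Neither difference passed.

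In the 3 genotypes that had lost 1 allele of a large subunit gene, footprints of Zfp36 and Zfp36l2 were above WT in every clone. Zfp36 had 51.5, 63.4 and 47.1 CPM in Rpl5+/- clones 68, 76 and 80, 68.1, 52.5 and 54.1 CPM in Rpl11+/- clones 22, 406 and 414, and 49.8, 64.9 and 66.6 CPM in Rpl22+/- clones 13, 16 and 60. These means were 134%, 144% and 150% of WT. Zfp36l2 had 75.7, 83.2 and 59.5 CPM in the same Rpl5+/- clones, 92.4, 72.8 and 61 CPM in the Rpl11+/- clones and 73.9, 61.1 and 99.1 CPM in the Rpl22+/- clones, or 139%, 144% and 149% of WT. Lowest mutant clones exceeded the highest WT clone by little: 47.1 against 43.5 CPM for Zfp36 and 59.5 against 58.3 CPM for Zfp36l2.

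None of these differences passed edgeR's test with Benjamini-Hochberg adjustment. For Zfp36 the log2 changes were 0.42 (SE 0.27, adjusted p = 1), 0.53 (SE 0.27, adjusted p = 0.54) and 0.58 (SE 0.27, adjusted p = 0.346) in Rpl5+/-, Rpl11+/- and Rpl22+/-. For Zfp36l2 they were 0.48 (SE 0.19, adjusted p = 1), 0.53 (SE 0.19, adjusted p = 0.319) and 0.58 (SE 0.19, adjusted p = 0.205). Few genes were called at all in these footprint comparisons (0.0123%, 0.074% and 0.253%), and 5.67%, 7.91% and 9.17% of genes had all mutant clones above all WT clones. The 3 comparisons share their WT clones, so their likeness is not an independent result. Zfp36l1 was above WT in all clones only in Rpl22+/- (31, 30 and 40.2 CPM, log2 change 0.52, adjusted p = 0.624). Leaving out the shallow Rpl22+/- clone 60 gave 0.51 for Zfp36, 0.37 for Zfp36l2 and 0.38 for Zfp36l1, none called.

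With both Rpl22 alleles lost, no member was called in footprints against WT. The 95% intervals of the log2 changes were -0.58 to 0.53 (Zfp36), -0.83 to 0.92 (Zfp36l1) and -0.48 to 0.31 (Zfp36l2). Zfp36l1 clones lay on both sides of the WT range. Rpl22-/- clones 30, 649 and 776 had 42.6, 39.3 and 37 CPM of Zfp36 and 49.4, 41.8 and 56.6 CPM of Zfp36l2, within or close to the WT range, where 0.105% of genes were called. Against Rpl22+/- all clones were lower for both genes, as all were for Zfp36l1 (28.9, 14.1 and 29.8 CPM), in a comparison where 9.97% of genes had all clones lower and 0.00617% were called. The log2 changes were -0.61 (SE 0.27, adjusted p = 0.315) for Zfp36, -0.66 (SE 0.19, adjusted p = 0.173) for Zfp36l2 and -0.48 (SE 0.42, adjusted p = 0.625) for Zfp36l1. The Zfp36l2 difference passed in DESeq2 (-0.68, adjusted p = 0.0404) and without Rpl22+/- clone 16 (-0.82, adjusted p = 0.0494). Without Rpl22-/- clone 30, the library against its label, the values were -0.66 for both Zfp36 and Zfp36l2 (adjusted p = 0.399 and 0.282).

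In Rpl10 R98S footprints of all 3 members overlapped WT. Clones A29, A30 and A34 had 43.9, 43.1 and 46.3 CPM of Zfp36, 20.3, 27.2 and 21.1 CPM of Zfp36l1 and 53.1, 63.5 and 54.1 CPM of Zfp36l2. The log2 changes were 0.14, -0.04 and 0.12, where 1.62% of genes were called.

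Estimated counts of Zfp36l1 and Zfp36l2 footprints were not whole numbers (within 0.01) in 21 and 22 of 24 libraries, against 1 library for Zfp36 and 0 libraries for any member in RNA. Such fractions arise where reads that match more than 1 gene are divided among them. In most of these libraries, though not all, the fractional counts of the 2 genes added up to a whole number, as in WT clone 1 (1866.458 and 3878.542). Separate footprint values and ratios of Zfp36l1 and Zfp36l2 thus rest partly on how shared reads were divided between them. Sharing with other genes was not tested, and the pseudogene Zfp36l1-ps held 7.219 footprint counts over all libraries. Summing Zfp36l1 and Zfp36l2 before the fit, an alternative chosen after seeing the data, gave footprint changes of -0.52 (SE 0.23, adjusted p = 0.134) in Rps15 P131S, 0.07 in Rps15 H137Y and 0.56 (adjusted p = 0.287) in Rpl22+/-, none called.

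**Figure D3:**
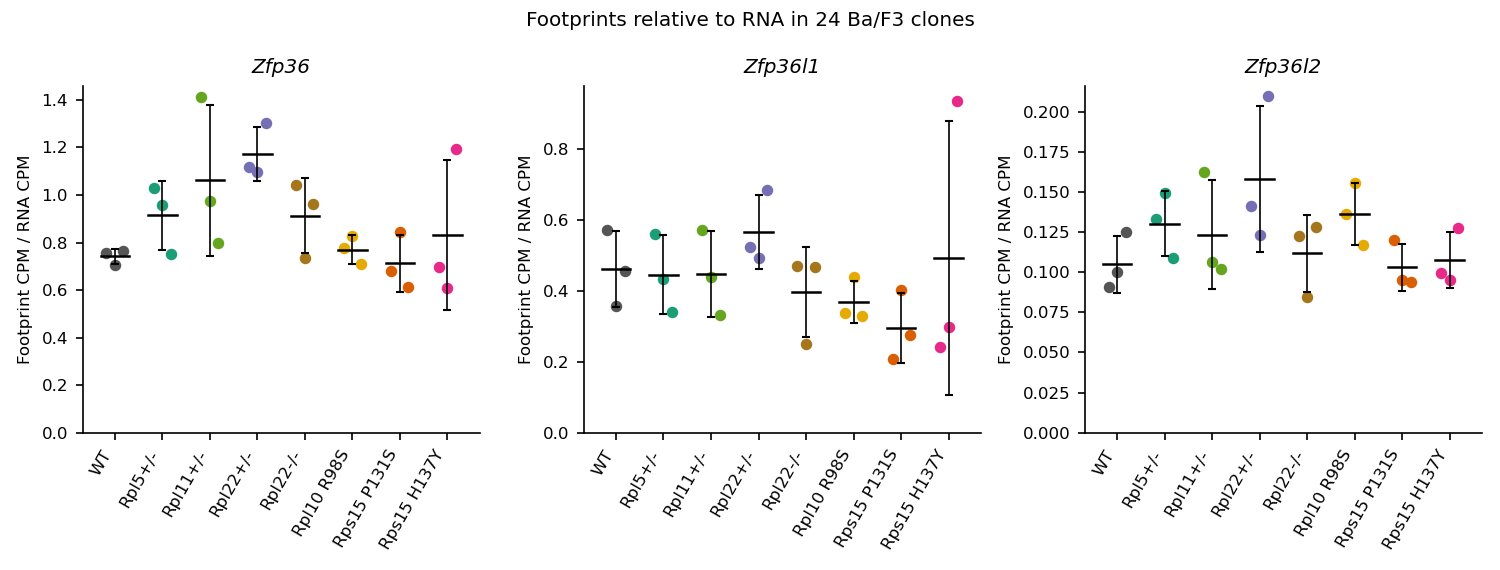
Footprint CPM divided by RNA CPM of the same clone (y axis, from 0, a separate scale per gene) by genotype (x axis), with clones as points, means as bars and SD over 3 clones as error bars. WT clones of Zfp36 sit between 0.705 and 0.765, all Rpl22+/- clones between 1.1 and 1.3, and Rps15 H137Y clone 6 has the highest Zfp36l1 ratio, 0.935.

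Translational efficiency, tested as the interaction of assay and genotype over all 48 libraries, was called in 0 of 21 comparisons of a member against WT by edgeR, with 1 at an unadjusted p under 0.05, and in 0 by DESeq2 and limma voom. That 1 was Zfp36l2 in Rpl22+/-, whose clones 13, 16 and 60 had ratios of 0.141, 0.123 and 0.21 against 0.0906, 0.0998 and 0.125 in WT clones 1, 2 and 3 (log2 change 0.59, SE 0.23, adjusted p = 0.475). Without Rpl22+/- clone 60, the shallowest library, it was 0.35. In these comparisons 3.14% of genes were called in Rps15 P131S, 2.58% in Rps15 H137Y, 0.212% in Rpl10 R98S, 0.0118% in Rpl22-/-, 0.0059% in Rpl22+/- and 0% in each of the other 2.

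Zfp36 ratios in Rpl22+/- were 1.12, 1.1 and 1.3 in clones 13, 16 and 60, all above the WT ratios of 0.754, 0.705 and 0.765 (log2 change 0.65, SE 0.35, adjusted p = 0.72). They were also above WT in Rpl11+/-, at 1.41, 0.974 and 0.796 in clones 22, 406 and 414 (0.46, SE 0.35, adjusted p = 1). Over 12074 genes 8.7% had all ratios above WT in Rpl22+/- and 6.23% in Rpl11+/-. In the Rps15 mutants the Zfp36 ratio overlapped WT. It was 0.845, 0.611 and 0.681 in Rps15 P131S clones 24, 63 and 20 (-0.0066, 95% interval -0.72 to 0.71) and 0.696, 1.19 and 0.607 in Rps15 H137Y clones 16, 6 and 2 (0.14, interval -0.58 to 0.86). Intervals of that width leave changes of either sign possible. The main fit did not pair the 2 libraries of a clone. With the clone as a block in edgeR, Zfp36 in Rpl22+/- had 0.65 (SE 0.21, adjusted p = 0.321). The block gave -0.06 (SE 0.21) in Rps15 P131S and 0.11 (SE 0.21) in Rps15 H137Y, also not called. Zfp36l1 in Rps15 P131S had ratios of 0.401, 0.275 and 0.209 against 0.57, 0.358 and 0.456 in WT (-0.56, SE 0.45, adjusted p = 0.683), and Zfp36l2 stayed at 0.0954, 0.0937 and 0.12 (-0.02).

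**Figure D4:**
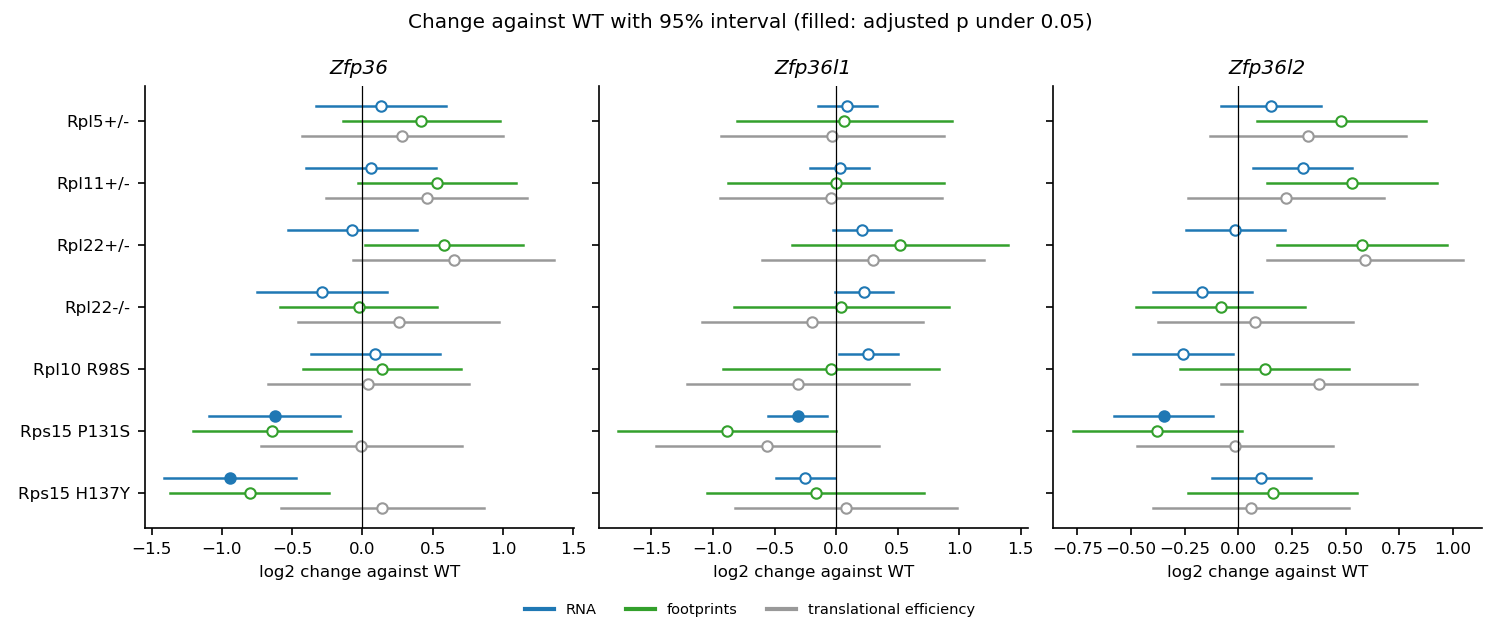
Log2 change against WT (x axis) of each member in RNA, footprints and translational efficiency for the 7 mutant genotypes (y axis); points are edgeR estimates, lines 95% intervals, and filled points passed an adjusted p of 0.05. The 4 filled points are RNA values, 3 in Rps15 P131S and Zfp36 in Rps15 H137Y, and intervals in footprints and translational efficiency are wider than in RNA.

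The machinery that the family recruits was also measured. Of 27 deadenylation and decapping genes, all tested, 9 rose and 9 fell in Rps15 P131S RNA and 1 rose and 9 fell in Rps15 H137Y RNA, that is 66.7% and 37% called, beside 47% and 41% of all genes (23.7% and 21% higher). Their median log2 changes were -0.01 and 0.0027, and those of all genes -0.01 and 0.008. Cnot4, a ubiquitin ligase that associates with CCR4-NOT, fell in all 7 mutant genotypes. It had 30.8 ± 1.72 CPM in WT, 15.4 ± 0.651 CPM in Rps15 P131S and 18.8 ± 1.85 CPM in Rps15 H137Y (SD, n = 3), with log2 changes of -0.996 (SE 0.11) and -0.71 (SE 0.10). Here and for the list genes below, all 7 comparisons share their WT clones. Calls in at least 4 mutants were also a reason for naming a gene. Calls of a gene in several genotypes are therefore not independent results.

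The decapping activator Dcp1a and the deadenylase Cnot6l fell in 6 genotypes, all but Rpl5+/-. Dcp1a changed by -0.42 in Rps15 P131S and -0.50 in Rps15 H137Y, and Cnot6l by -0.40 and -0.47. Cnot6, the paralogous deadenylase, was called in the Rps15 mutants alone, at -0.40 and -0.77. The decapping enzyme Dcp2 fell in Rpl22+/-, Rpl22-/- and Rpl10 R98S (-0.36, -0.33 and -0.36) and rose in Rps15 P131S (0.31). The helicase Ddx6 fell in RNA in the same 3 genotypes and in Rps15 P131S (-0.43, adjusted p = 7.15e-06), while its footprints rose in Rps15 P131S (0.37, adjusted p = 0.021).

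The list of other AU-rich element binding proteins also holds factors that act on stem-loops, such as Rc3h1. Its genes were called in Rps15 P131S RNA in 8 of 12 cases, 6 higher and 2 lower. In Rps15 H137Y 5 were called, 3 higher and 2 lower (66.7% and 41.7%, beside 47% and 41% of all genes). Hnrnpab, an hnRNP of the AUF1 type, rose from 807 ± 36.8 CPM in WT to 1230 ± 209 CPM in Rps15 P131S and 1078 ± 38.7 CPM in Rps15 H137Y (SD, n = 3; log2 changes 0.61 and 0.42), and its footprints rose in both (0.81 and 0.52). Rc3h1 (roquin 1), which recruits the same deadenylase to stem-loops, rose by 0.56 and 0.70 in RNA, while its footprint changes were -0.14 in each and did not pass. The decay factor Khsrp rose by 0.35 and 0.52, and Celf2 fell by 0.27 and 0.35 on the log2 scale.

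**Figure D5:**
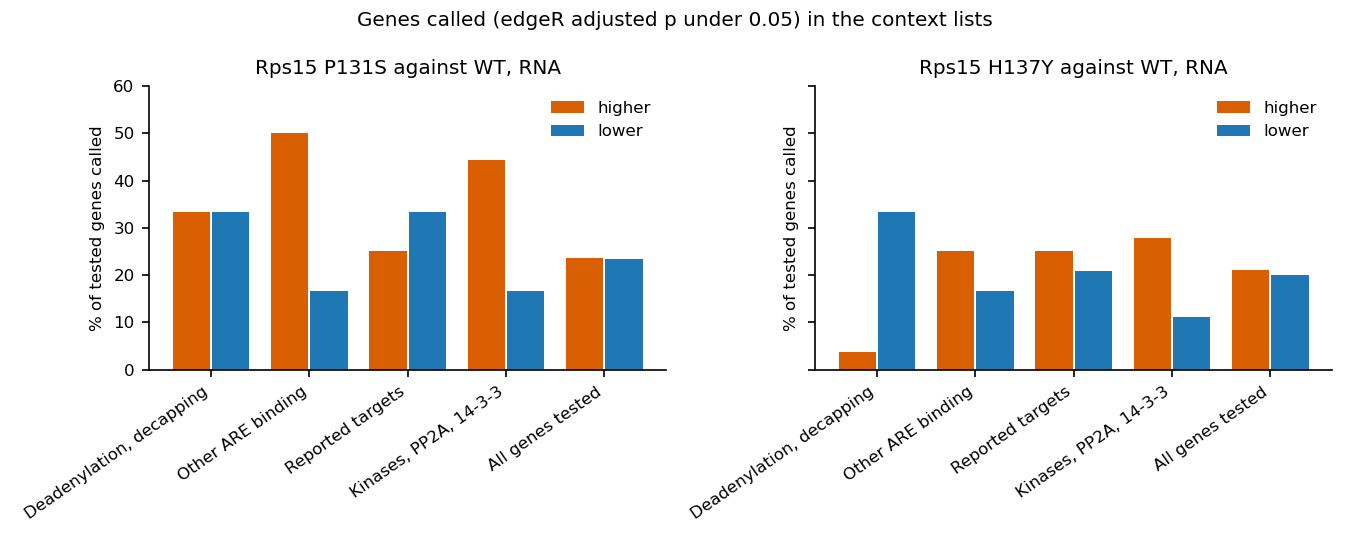
Percent of tested genes called higher or lower in RNA (y axis, from 0) in each gene list around the family and in all genes (x axis), for Rps15 P131S (left) and Rps15 H137Y (right). Deadenylation and decapping genes are called lower in 33.3% of cases in each mutant, beside 23.4% and 20% of all genes.

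Messenger RNAs reported elsewhere as targets of the family moved in both directions. Of 33 listed, 24 were tested in RNA, and 6 rose and 8 fell in Rps15 P131S and 6 rose and 5 fell in Rps15 H137Y (58.3% and 45.8% called, beside 47% and 41% of all genes), with median log2 changes of 0.02 and 0.14, beside -0.01 and 0.008 over all genes. Tnf, the cytokine whose mRNA is the best known target of Zfp36, fell from 12 ± 1.68 CPM in WT to 6 ± 1.75 CPM in Rps15 P131S and 5.4 ± 3.1 CPM in Rps15 H137Y (SD, n = 3), with log2 changes of -1.0 (SE 0.36, adjusted p = 0.027) and -1.15 (SE 0.36, adjusted p = 0.0147). Its footprints fell in Rps15 H137Y (-0.91, adjusted p = 0.0326) and had -0.71 in Rps15 P131S (adjusted p = 0.0776).

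Myc, the growth regulator, fell in RNA in Rps15 P131S (-0.97), Rps15 H137Y (-0.48), Rpl22+/- (-0.69) and Rpl22-/- (-0.71). Its footprints were -0.34 and 0.07 in the Rps15 mutants and did not pass. Plk3, a stress-responsive kinase, rose in 5 genotypes, from 5.12 ± 0.4 CPM in WT to 20.8 ± 2.79 CPM in Rps15 P131S and 12.1 ± 3.71 CPM in Rps15 H137Y (SD, n = 3). The chemokine Ccl3 was called higher in both Rps15 mutants but at very low levels, 0.421 and 0.358 CPM against 0.0244 CPM in WT.

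Kinases, phosphatase subunits and 14-3-3 proteins that act on the family were called in 11 of 18 cases in Rps15 P131S RNA (8 higher, 3 lower) and in 7 in Rps15 H137Y (5 higher, 2 lower), or 61.1% and 38.9%, beside 47% and 41% of all genes. Mapkapk2 (MK2), the p38-dependent kinase that phosphorylates Zfp36 and so blocks its decay activity, rose by 0.45 and 0.34 in RNA. Its relative Mapkapk3 rose by 0.32 and 0.47, Akt1 by 0.51 and 0.41 and the 14-3-3 gene Ywhab by 0.19 and 0.33. In footprints none of these 4 passed: Mapkapk2 had -0.32 and -0.38 and Akt1 -0.46 and 0.22.

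In each of the 4 lists a smaller share was called in footprints than in RNA. In Rps15 P131S 22.2% of the deadenylation and decapping genes, 33.3% of the other AU-rich element binding proteins, 21.7% of the reported targets and 11.8% of the kinase, phosphatase and 14-3-3 genes were called, beside 16.7% of all genes, and in Rps15 H137Y 7.41%, 16.7%, 21.7% and 11.8%, beside 11.7%.

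Likeness of RNA pattern was measured as the root mean square (RMS) difference of the 7 log2 changes against WT, over 12813 other genes. Nearest to Zfp36 were Nat8 (0.111), Gemin8 (0.114) and Surf1 (0.117), beside a median of 0.518 over all genes. For Zfp36l1 they were Rnf214 (0.0603), Filip1l (0.082) and Mtarc2 (0.0851), with a median of 0.35, and for Zfp36l2 they were Cdk6 (0.0893), Cyp7a1 (0.0942) and AC166172.1 (0.103), with a median of 0.346. Distances between family members were 0.312 for Zfp36l1 and Zfp36l2, 0.369 for Zfp36 and Zfp36l1 and 0.443 for Zfp36 and Zfp36l2. The genes named above were picked as the nearest, so the medians are the fairer reference. The distance of 0.312 was below the medians of its members. Those of 0.369 and 0.443 were below the median of Zfp36 and above that of the other member. All 7 changes share the WT clones, so these distances are descriptions.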

How the data were processed

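RNA-seq and ribosome footprints were measured in 24 clones each, 48 libraries in all. The authors deposited estimated counts per Ensembl gene, not normalized and partly fractional. Per the submitters' processing notes, STAR 2.6.1d, Salmon 1.4.0, DESeq2 1.30 and the build GRCm38 were used, with roles not given in the sources used here. Per the labels' protocols, each lysate gave both libraries of a clone; the RNA-seq kit marks strand and selects poly(A).

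Counts were rounded and tested with edgeR 4.0.16 (R 4.3.3, limma 3.58.1, DESeq2 1.42.0): quasi-likelihood fit, TMM scaling within an assay (factors 0.913 to 1.06 in RNA, 0.877 to 1.08 in footprints), filterByExpr, 1 fit of all 24 libraries of an assay, two-sided tests, Benjamini-Hochberg adjustment over all genes kept (12814 in RNA, 16217 in footprints, 16957 for translational efficiency) and a threshold of 0.05 for a call. CPM uses scaled library sizes. An adjusted p sets a difference against the spread between clones. That spread was estimated over all genotypes together and pooled across genes, so it is not that of the 2 groups compared alone. The scripts were tested on simulated data. No 2 libraries of a group agreed within sampling noise (chi-square per degree of freedom at least 5.57).

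Groups and clone numbers came from the labels. RNA and footprint libraries of equal number come from 1 lysate, and their deviations from the genotype mean correlated at 0.15 to 0.548 in 24 of 24 clones over 12074 genes. Alternatives were DESeq2, limma voom, median-of-ratios scaling, no filter, a fit of only the 2 genotypes compared, each clone left out and, for translational efficiency, the clone as a block. Symbols came from the table for 32115 genes and from a table of names for 23112. Coding length was planned for levels per kb, and the RefSeq gene span was used instead. The members, gene lists and motifs were chosen with earlier results of these data known. List genes named are up to 4 per list with the largest change in Rps15 P131S among those called, without overlap of clones, in both Rps15 mutants, and those called in at least 4 mutants. The 3 nearest genes per member are named for likeness. Of the 10 pro-B cell markers listed, 1 is not reported here.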

Additional observations from a re-analysis of the deposited data

Results flagged for a closer look

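The effect of an Rps15 mutation on Zfp36l2 RNA differed between the 2 mutants by the test of the difference itself. The log2 change of Rps15 P131S against Rps15 H137Y was -0.45 (edgeR, adjusted p = 0.00497), with 3 of 3 Rps15 P131S clones below all Rps15 H137Y clones. In that comparison 25.2% of all genes were called (12.6% lower) and 29.8% did not overlap (15.2% lower). In a fit of those 2 genotypes alone the difference was not called (-0.46, adjusted p = 0.0861).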

How the results depend on the processing

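Of 81 member values fitted (3 genes, 9 comparisons, 3 levels), 69 of the 76 not called stayed uncalled under every alternative and 7 were called under at least 1. Comparisons of a member with WT called in RNA numbered 4, and 2 with only the 2 genotypes compared. That fit, with fewer samples, ended the 3 Rps15 P131S calls with nearly unchanged values (Zfp36 -0.62, Zfp36l1 -0.31, Zfp36l2 -0.35). It also ended that of Zfp36l2 between the Rps15 mutants (-0.46). Its standard error in Rps15 P131S was 0.30 against 0.22 in the main fit for Zfp36, and 0.17 against 0.12 for Zfp36l1. For Zfp36 in Rps15 H137Y, where the call held, it was 0.090 against 0.22. Leaving out the filter ended the call of Zfp36 in Rps15 P131S (-0.62). DESeq2 called 1 and limma voom 2 footprint comparisons, against 0 by edgeR. Leaving out 1 clone gave 1 to 4 RNA and 0 to 1 footprint comparisons called. RNA values against WT then ran from -0.95 to -0.35 (Zfp36), -0.42 to -0.15 (Zfp36l1) and -0.47 to -0.21 (Zfp36l2) in Rps15 P131S. In 30 of the 81 values, none of them called, the sign changed in at least 1 such fit. The widest range was that of Zfp36l1 footprints in Rps15 P131S against Rps15 H137Y (-1.10 to 0.12). Others ran from -0.0090 to 0.59 (Zfp36) and -0.17 to 0.11 (Zfp36l1) in RNA of Rps15 P131S against Rps15 H137Y, from -0.18 to 0.032 (Rpl10 R98S) and -0.97 to 0.14 (Rps15 H137Y) in Zfp36l1 footprints, and in translational efficiency from -0.21 to 0.11 (Zfp36) and -0.14 to 0.13 (Zfp36l2) in Rps15 P131S and -0.18 to 0.33 (Zfp36) in Rps15 H137Y. The cause was not tested. With the clone as a replicate block, 0 translational efficiencies of members were called, and Zfp36l2 in Rpl22+/- had 0.56 (adjusted p = 0.417). The block changed no call of a member. Over all genes it moved the translational efficiency calls from 1 to 9 in Rpl22+/-, 2 to 4 in Rpl22-/- and 36 to 70 in Rpl10 R98S. Other counts of genes called also moved by over 1.5 times. With only the 2 genotypes compared, RNA calls went from 500 to 1248 (Rpl22+/-), 675 to 1436 (Rpl22-/-), 1647 to 4216 (Rpl10 R98S), 133 to 1868 (Rpl5+/-) and 1509 to 855 (Rpl11+/-), and from 3234 to 378 between the Rps15 mutants. RNA calls in Rpl5+/- were 371 by DESeq2 and 49 without the filter. Footprint calls ran over the alternatives from 1 to 55 in Rpl5+/- (2 by edgeR), 5 to 226 in Rpl11+/- (12), 3 to 367 in Rpl22+/- (41), 16 to 149 in Rpl22-/- (17), 255 to 706 in Rpl10 R98S (263), 0 to 327 between the Rpl22 genotypes (1) and 34 to 1275 between the Rps15 mutants (677). DESeq2 called 28, 40, 89, 53, 162 and 744 translational efficiencies in Rpl5+/-, Rpl11+/-, Rpl22+/-, Rpl22-/-, Rpl10 R98S and Rps15 H137Y, against 0, 0, 1, 2, 36 and 437 by edgeR, and without the filter 320 were called in Rps15 P131S against 532 with it. With 3 clones a genotype, footprint standard errors of 0.19 (Zfp36l2) to 0.42 (Zfp36l1) on the log2 scale limit what could be detected.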
